A study of Mus musculus with 9 samples.

Results

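The comparison set 3 libraries of SB431542-treated iECDC (replicates 1, 2 and 3) against 3 libraries of untreated iECDC (replicates 1, 2 and 3). These 6 libraries were chosen by their labels from the 9 of the series, and the other 3 libraries came from primary cells (pECDC). All were mouse RNA sequencing libraries of cardiosphere-derived cells, labelled as heart ventricle cells of the C57BL/6 background. Both groups were described as cells immortalized with hTERT, the catalytic subunit of human telomerase, and kept to passage 30, so that immortalization and passage were shared and SB431542, given for 3 days, was the labelled difference. The labels gave the untreated libraries no vehicle and the treated ones no dose. The study's methods name the treated cells as an epithelial clone of the primary cells and do give a dose. Its discussion describes epithelial clones of treated primary cells at a later time than the labelled 3 days. The labels name treated iECDC, and the labels were followed here. In these 6 libraries Cdkn2a, which encodes the p16 and p19 cell cycle inhibitors, had 0, 1 and 0 counts in iECDC and 0, 0 and 0 after SB431542, while the pECDC libraries had 407 to 562 counts. Nothing in the labels said whether the 3 replicates of a group came from separate cultures, so the p-values measure the spread between these libraries, which may be technical.

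SB431542 is an inhibitor of the kinases Tgfbr1, Acvr1b and Acvr1c, the type I receptors for TGF-β, activin and nodal. After ligand binding these receptors phosphorylate Smad2 and Smad3, which enter the nucleus with Smad4 and act on target genes, among them genes of the extracellular matrix, of the contractile cytoskeleton and of feedback inhibitors of the pathway. In cells derived from the epicardium, the outer cell layer of the heart, TGF-β is known to drive the change from an epithelial to a mesenchymal state, and in fibroblasts the change to contractile myofibroblasts.

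The 6 libraries held 16568306 to 20849975 counts each, and 1.16 to 1.77% of counts came from mitochondrial genes, with 1.16 to 1.4% in iECDC and 1.52 to 1.77% after SB431542. SB431542 replicates 1 and 3 were close to each other, with a chi-square of 3.79 per degree of freedom over 13708 genes. SB431542 replicate 2 lay apart from both of them (71.5 and 70.3) and about as far from the iECDC libraries (64.5 to 82.2), whereas replicates 1 and 3 differed from the iECDC libraries by 136 to 159. iECDC replicate 3 also stood apart from iECDC replicates 1 and 2 (30.8 and 24.9, against 4.61 between those 2). The place of SB431542 replicate 2 was therefore measured gene by gene, over the 7001 genes called without it, on a scale of log2 CPM (counts scaled to library size) on which 0 is the mean of iECDC and 1 the mean of SB431542 replicates 1 and 3. Its median position was 0.46, with quartiles of 0.21 and 0.70, and 79.3% of the genes lay between 0 and 1. In 28.0% of the genes it was below 0.25, near iECDC or beyond it. In 21.6% it was above 0.75, near the other treated libraries or beyond them. On the linear FPKM scale (fragments per kilobase of gene, scaled to the mapped total of the library) the median was 0.36 for genes higher and 0.51 for genes lower after SB431542. Every count below is given for all 6 libraries and, where it bears on the result, without SB431542 replicate 2.

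**Figure D1:**
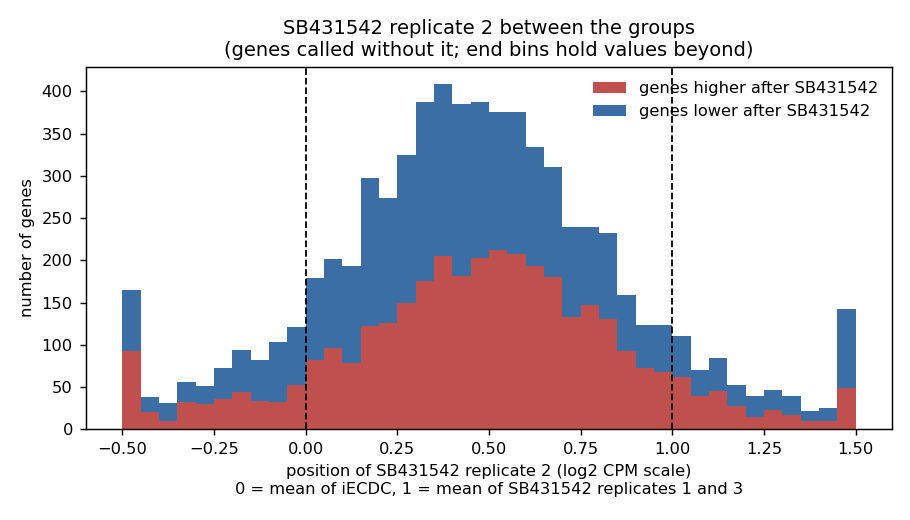
Position of SB431542 replicate 2 for each of the 7001 genes called without it (x axis, log2 CPM scale, 0 = mean of iECDC, 1 = mean of SB431542 replicates 1 and 3) against the number of genes (y axis), with genes higher after SB431542 in red and lower in blue. The distribution has 1 broad peak around the median of 0.46 and reaches past both dashed lines, and the end bins hold the values beyond them.

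Of 54532 genes in the table, 13559 had enough counts to be tested, and 4061 of them (30.0%) had an adjusted p under 0.05 in the quasi-likelihood test of edgeR, adjusted by Benjamini-Hochberg. Of these, 2164 were higher (16.0% of the tested genes) and 1897 lower (14.0%) after SB431542. Such genes are called below, and only they are said to have risen or fallen. Without SB431542 replicate 2, 7001 of 13955 genes were called (50.2%), 3537 higher (25.3%) and 3464 lower (24.8%), and 4044 of the 4061 genes were called in the same direction. Without iECDC replicate 3 the count was 3559 (25.4%), and 2985 of the 4061 genes were shared. Leaving out 1 of the 4 libraries that lay close to their partners gave fewer calls, 1707 without iECDC replicate 1, 1788 without iECDC replicate 2, 1765 without SB431542 replicate 1 and 1886 without SB431542 replicate 3. These 4 libraries are referred to as the concordant libraries. With 1 of them left out 984 to 1121 genes were higher and 707 to 765 lower, of 13774 to 13983 tested. Counts of list members without 1 concordant library are to be read against these lower numbers. The median size of the change was 0.34 on the log2 scale over all tested genes and 0.78 over the called genes. Of the called genes 1434 (10.6% of those tested) had changed by 1 or more on the log2 scale, 941 higher and 493 lower. The libraries of the groups did not overlap for 6299 of the tested genes (46.5%). In what follows values are listed in the order of replicates 1, 2 and 3, the number after ± is the standard error (SE) of the log2 fold change of SB431542 over iECDC, and adjusted p-values are those of edgeR. A bare number in parentheses after a gene is its log2 fold change.

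The largest increases among well-expressed genes were led by genes of secreted proteins. Mmp3, a matrix metalloproteinase (stromelysin), was at 0.880, 0.844 and 0.434 FPKM in iECDC and 315, 48.4 and 322 after SB431542 (log2 fold change 8.29 ± 0.84, adjusted p = 9.12e-04). Prelp, a small leucine-rich proteoglycan, had 3, 5 and 1 counts in iECDC and 1535, 382 and 1361 after SB431542 (adjusted p = 8.36e-04). Sfrp2, a secreted Wnt antagonist, had 3, 6 and 5 counts in iECDC and 1117, 436 and 1058 after SB431542 (adjusted p = 3.95e-04). In all 3 genes SB431542 replicate 2 was below replicates 1 and 3. It was above every iECDC library, but only genes without overlap between the groups entered this ranking. Fgf23, a phosphate-regulating hormone normally made by bone cells, was at 0.328, 0.470 and 0.323 FPKM in iECDC and 57.0, 10.6 and 60.1 after SB431542 (log2 fold change 6.84 ± 0.77, adjusted p = 0.00120). Clu, the secreted chaperone clusterin, was at 4.99, 5.49 and 3.92 FPKM in iECDC and 263, 32.4 and 271 after SB431542 (log2 fold change 5.31 ± 0.75, adjusted p = 0.00263). Stc1, the secreted glycoprotein stanniocalcin, was at 1.96, 1.46 and 0.868 FPKM in iECDC and 81.1, 28.2 and 84.3 after SB431542 (log2 fold change 5.49 ± 0.50, adjusted p = 6.22e-04). The others of the 15 largest increases were Serpina3g (7.09), whose reads may be shared with its close paralogs, Pamr1 (5.67), Svep1 (5.11), Ppl (4.93), Dcn (4.83), Selenop (4.50), Gda (4.28), Cp (4.22) and Rtn4rl2 (4.21). Rtn4rl2, a Nogo receptor-related protein, was the exception among them in the place of SB431542 replicate 2, with 3.09, 1.94 and 2.68 FPKM in iECDC and 46.1, 52.5 and 44.2 after SB431542.

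The largest decreases were led by Pappa, the protease that cleaves IGF binding proteins, at 20.3, 25.3 and 17.7 FPKM in iECDC and 0.0724, 0.496 and 0.136 after SB431542 (log2 fold change -6.44 ± 0.56, adjusted p = 5.70e-04). Ccl17, a chemokine for T cells, was at 109.8, 100.2 and 108 FPKM in iECDC and 1.66, 9.25 and 1.40 after SB431542 (log2 fold change -4.63 ± 0.55, adjusted p = 0.00148). Ptgs2, the inducible cyclooxygenase, was at 189.6, 187 and 71.9 FPKM in iECDC and 2.71, 17.2 and 3.37 after SB431542 (log2 fold change -4.26 ± 0.76, adjusted p = 0.00641). The treated libraries lay below every iECDC library in each of these genes, as the rule for choosing the largest changes required. Pmepa1 and Ctgf, known targets of TGF-β, also belonged to the 15 largest decreases, as did Lce1g (-4.02), Plac8 (-3.54), Wisp1 (-3.33), Ifi27l2a (-3.30), Pdlim1 (-3.27), Uchl1 (-3.16), Hes1 (-3.08), Col11a1 (-2.87) and Esm1 (-2.75). Lce1g belongs to a family of near copies, and reads of such families may be split or shared.

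**Figure D2:**
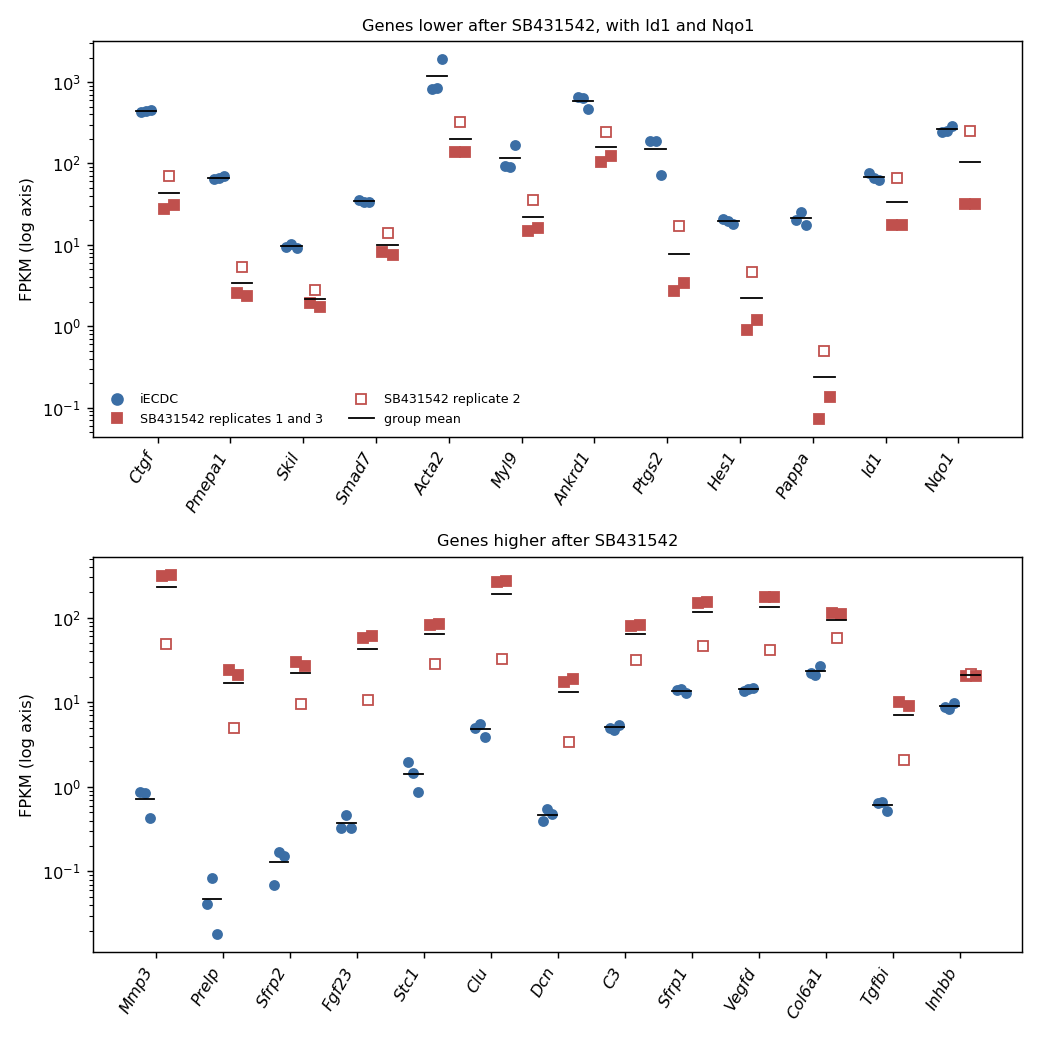
FPKM of each library (log axis) for genes lower (upper panel, with Id1 and Nqo1 that were not called) and genes higher after SB431542 (lower panel), with iECDC as blue circles, SB431542 replicates 1 and 3 as filled red squares, replicate 2 as an open square and group means as black lines. The open square lies between the groups for most genes, at the level of iECDC for Id1 and Nqo1, and among the other treated libraries for Inhbb.

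Most of the called readouts of the inhibited pathway fell. Of 25 listed TGF-β target genes 21 were tested, 11 were lower and 2 higher, and their median log2 fold change was -0.63 against 0.0014 over all tested genes. Ctgf, a matricellular growth factor (ENSMUSG00000019997, chromosome 10, 24595442 to 24598683, plus strand, GRCm38), was at 431, 442 and 459 FPKM in iECDC and 27.4, 70.9 and 30.7 after SB431542 (log2 fold change -3.36 ± 0.36, adjusted p = 0.00102), a 10.3-fold difference of the means. Pmepa1, a membrane protein that binds Smads and dampens the signal, was at 64.1, 66.4 and 70.5 FPKM in iECDC and 2.54, 5.27 and 2.32 after SB431542 (log2 fold change -4.29 ± 0.31, adjusted p = 3.50e-04). In both genes SB431542 replicate 2 was higher than replicates 1 and 3. It was below every iECDC library, as the rule for the largest decreases required. The feedback inhibitors of the pathway moved the same way. Smad7, which blocks the type I receptors, was at 35.3, 33.7 and 33.5 FPKM in iECDC and 8.16, 14.0 and 7.49 after SB431542 (log2 fold change -1.78 ± 0.22, adjusted p = 0.00176). Skil, a corepressor of Smad-driven transcription, was at 9.31, 10.3 and 9.02 FPKM in iECDC and 1.92, 2.79 and 1.73 after SB431542 (log2 fold change -2.14 ± 0.18, adjusted p = 4.66e-04). Klf10, an early TGF-β response factor, fell (log2 fold change -1.17 ± 0.19, adjusted p = 0.00458), as did Tgif1, a Smad corepressor (log2 fold change -0.63 ± 0.13, adjusted p = 0.00981, not called without iECDC replicate 1 (highest adjusted p 0.05001)). Il11, a cytokine induced by TGF-β in fibroblasts, had 152, 124 and 43 counts in iECDC and 0, 17 and 7 after SB431542 (adjusted p = 0.00754). Ltbp2, a microfibril protein of the latent TGF-β binding family, had 374, 293 and 777 counts in iECDC and 1, 78 and 1 after SB431542 (adjusted p = 0.0133). Against this direction, 2 genes of the list rose. Tgfbi, a secreted matrix protein named for its induction by TGF-β, was at 0.644, 0.661 and 0.518 FPKM in iECDC and 9.995, 2.06 and 8.98 after SB431542 (log2 fold change 3.53 ± 0.56, adjusted p = 0.00405). Lmcd1, a LIM domain protein, was at 2.38, 2.11 and 3.31 FPKM in iECDC and 15.7, 8.19 and 15.2 after SB431542 (log2 fold change 2.34 ± 0.29, adjusted p = 0.00170). Fn1, fibronectin, was at 325, 367 and 469 FPKM in iECDC and 728, 434 and 659 after SB431542 and was not called (log2 fold change 0.66 ± 0.23, adjusted p = 0.0602). Fn1 had an adjusted p of 0.00158 without SB431542 replicate 2 and of 6.63e-16 to 0.208 over the alternatives. Here and below, such ranges include a fit without both SB431542 replicate 2 and iECDC replicate 3, chosen after seeing the data. The smallest values can come from that fit. Without SB431542 replicate 2 the list had 12 genes lower and 6 higher, and with 1 concordant library left out 8 to 9 lower and 2 higher.

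SB431542 is known to spare the BMP type I receptors, and the Id genes are the usual readout of BMP signalling through Smad1. Of 8 tested BMP target genes 1 was called lower (12.5%, near the 14.0% of all tested genes) and none higher. Without SB431542 replicate 2, 5 of the 8 were lower, when 24.8% of all tested genes were lower. Id1 was at 76.6, 66.2 and 62.2 FPKM in iECDC and 17.3, 65.3 and 17.7 after SB431542 (log2 fold change -1.02 ± 0.47, adjusted p = 0.131). Id1 had an adjusted p of 3.24e-06 without SB431542 replicate 2 and of 9.55e-20 to 0.324 over the alternatives. Id3 was at 219.9, 188 and 195 FPKM in iECDC and 75.5, 174 and 76.2 after SB431542 (log2 fold change -0.88 ± 0.31, adjusted p = 0.0612). Id3 had an adjusted p of 1.16e-05 without SB431542 replicate 2 and of 1.23e-17 to 0.190 over the alternatives. In both genes SB431542 replicates 1 and 3 were well below iECDC while replicate 2 was at or near the iECDC level. The 1 called gene was Bambi, a decoy receptor (log2 fold change -1.02 ± 0.17, adjusted p = 0.00475).

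Among the ligands of the TGF-β superfamily 12 of 22 were tested, 4 higher and 4 lower. Inhba, the subunit of activin A, was at 111, 127 and 77.1 FPKM in iECDC and 31.3, 37.0 and 33.7 after SB431542 (log2 fold change -1.62 ± 0.19, adjusted p = 0.00142). Inhbb, the subunit of activin B, was at 8.89, 8.35 and 9.82 FPKM in iECDC and 20.4, 21.6 and 20.3 after SB431542 (log2 fold change 1.21 ± 0.10, adjusted p = 4.66e-04). SB431542 replicate 2 was close to replicates 1 and 3 in both genes. Bmp4 was at 1.59, 1.98 and 1.42 FPKM in iECDC and 8.47, 4.23 and 8.37 after SB431542 (log2 fold change 2.09 ± 0.30, adjusted p = 0.00267), while Bmp6 (-2.39), Gdf6 (-1.68) and Gdf15, a stress-induced ligand (log2 fold change -0.91 ± 0.16, adjusted p = 0.00640), fell. Of 27 tested receptors, Smads and extracellular regulators 8 were higher (29.6%, against 16.0% of all tested genes) and 9 lower (33.3%, against 14.0%). Without 1 concordant library 5 to 7 were called in each direction. The target of the inhibitor, Tgfbr1, rose (log2 fold change 0.69 ± 0.14, adjusted p = 0.0102). So did its relative Acvr1b (log2 fold change 1.10 ± 0.14, adjusted p = 0.00166) and the coreceptor Tgfbr3 (log2 fold change 1.85 ± 0.21, adjusted p = 0.00120). Smad3 was at 12.8, 12.4 and 14.7 FPKM in iECDC and 25.4, 29.3 and 23.98 after SB431542 (log2 fold change 0.99 ± 0.12, adjusted p = 0.00152). Smad2 was at 15.5, 14.7 and 14.5 FPKM in iECDC and 10.8, 10.6 and 10.9 after SB431542 (log2 fold change -0.46 ± 0.09, adjusted p = 0.00976, not called without iECDC replicate 1 (highest adjusted p 0.0525)). The mRNAs of the 2 receptor-activated Smads went in opposite directions. The secreted antagonists also split, with Fst, follistatin, which binds activin, lower (log2 fold change -2.19 ± 0.48, adjusted p = 0.0130, not called without iECDC replicate 1 (highest adjusted p 0.0556)), Fstl3 (-0.96) and Nbl1 (-0.71) lower and Chrd, chordin, which binds BMPs, higher (log2 fold change 1.75 ± 0.29, adjusted p = 0.00472). The median position of SB431542 replicate 2 over the 19 members called without it was 0.84, close to the other treated libraries.

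Many contractile genes of smooth muscle and myofibroblasts fell. Of 23 tested genes 12 were lower and 2 higher, with a median log2 fold change of -0.89. Acta2, smooth muscle α-actin, was at 812, 848 and 1898 FPKM in iECDC and 137, 322 and 137 after SB431542 (log2 fold change -2.56 ± 0.45, adjusted p = 0.00581), and iECDC replicate 3 was the highest library. Myl9, a regulatory myosin light chain, showed the same picture with 92.4, 89.3 and 170.0 FPKM in iECDC and 14.7, 35.6 and 15.9 after SB431542 (log2 fold change -2.39 ± 0.39, adjusted p = 0.00424). Cald1, caldesmon, was at 151, 165 and 155 FPKM in iECDC and 62.5, 91.6 and 63.4 after SB431542 (log2 fold change -1.10 ± 0.17, adjusted p = 0.00380). Actn1, α-actinin, was at 210.0, 225 and 255 FPKM in iECDC and 88.6, 104 and 80.7 after SB431542 (log2 fold change -1.32 ± 0.14, adjusted p = 0.00112). Smtn (-0.74), Tgfb1i1 (-0.89), Myh11 (-2.32) and Srf, the factor that binds the CArG box of such genes (log2 fold change -0.72 ± 0.19, adjusted p = 0.0248, not called without any library but SB431542 replicate 2 (highest adjusted p 0.0989)), were lower as well. Mylk, the myosin light chain kinase, went the other way at a low level, with 0.123, 0.130 and 0.220 FPKM in iECDC and 1.34, 0.460 and 1.22 after SB431542 (log2 fold change 2.70 ± 0.44, adjusted p = 0.00441). Mkl2, a coactivator of Srf, rose (log2 fold change 0.55 ± 0.11, adjusted p = 0.00996, not called without iECDC replicate 1 (highest adjusted p 0.0560)). Tagln, a common myofibroblast marker, was low in all libraries at 1.42, 1.44 and 3.73 FPKM in iECDC and 0.402, 1.32 and 0.223 after SB431542 (log2 fold change -1.71 ± 0.63, adjusted p = 0.0725). Tagln had an adjusted p of 0.00304 without SB431542 replicate 2 and of 2.40e-06 to 0.240 over the alternatives. Without SB431542 replicate 2, 17 genes of the list were lower and 2 higher, and without 1 concordant library 10 to 11 were lower.

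The CArG box, the binding sequence of Srf, was searched for on both strands in the 250 bases before the RefSeq start sites of the mouse assembly GRCm38.p6. It was found in 482 of 32851 promoters (1.47%), in 1.23% of the promoters of 1224 genes called higher, in 1.36% of those of 1173 genes called lower and in 1.12% of those of 5349 tested genes not called. Of the 21 contractile genes with a promoter in the table, 4 held it. Of these the promoter of Myl9 (chr2:156775214-156775463, plus strand) is shown because its transcript fell in every treated library, with the box, 161 bases before the start, in capitals. A match is a description of the letters and not a measured binding site.
Myl9: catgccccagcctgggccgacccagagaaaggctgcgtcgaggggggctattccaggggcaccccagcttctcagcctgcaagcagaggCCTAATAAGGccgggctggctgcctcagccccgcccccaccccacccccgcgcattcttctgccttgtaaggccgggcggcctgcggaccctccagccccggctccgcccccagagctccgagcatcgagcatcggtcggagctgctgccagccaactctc

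Genes known as targets of YAP and TEAD, the transcriptional arm of the Hippo pathway that responds to cell tension, were lower in 9 of 15 cases and higher in 1. Ankrd1, a mechanosensitive nuclear protein, was at 661, 639 and 463 FPKM in iECDC and 105, 245 and 124 after SB431542 (log2 fold change -1.89 ± 0.32, adjusted p = 0.00504). Cyr61, a matricellular protein, was at 659, 659.9 and 659 FPKM in iECDC and 238, 389 and 250.1 after SB431542 (log2 fold change -1.16 ± 0.19, adjusted p = 0.00484). Ctgf, described above, is on this list too. Fstl1, a follistatin-like glycoprotein, fell (log2 fold change -0.70 ± 0.13, adjusted p = 0.00691), and 4 to 5 genes of the list were lower and 0 higher with 1 concordant library left out, against 6 and 2 without iECDC replicate 3.

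The collagens did not move in 1 direction. Of 30 tested collagen genes 9 were higher and 7 lower. The chains of fibrillar collagens differed from each other. Col5a2, a regulator of fibril diameter, was at 150.1, 158 and 198 FPKM in iECDC and 44.6, 48.5 and 48.5 after SB431542 (log2 fold change -1.83 ± 0.15, adjusted p = 3.95e-04). For this gene SB431542 replicate 2 was at the level of replicates 1 and 3. Col11a1 was at 12.8, 13.2 and 11.3 FPKM in iECDC and 1.74, 1.26 and 2.05 after SB431542 (log2 fold change -2.87 ± 0.19, adjusted p = 3.15e-04). Col3a1 was at 46.5, 46.4 and 64.0 FPKM in iECDC and 182, 66.2 and 193 after SB431542 (log2 fold change 1.51 ± 0.37, adjusted p = 0.0188, not called without iECDC replicates 1 or 2 or SB431542 replicates 1 or 3 (highest adjusted p 0.0812)). Col1a1 was at 493, 489.9 and 601 FPKM in iECDC and 772, 346 and 677 after SB431542 and was not called (log2 fold change 0.19 ± 0.28, adjusted p = 0.618). Col1a1 had an adjusted p of 0.0131 without SB431542 replicate 2 and of 3.74e-10 to 0.956 over the alternatives. SB431542 replicate 2 was below the iECDC libraries for Col1a1 and replicates 1 and 3 were above them. Col6a1, a chain of the microfibrillar collagen around cells, was at 22.2, 20.9 and 27.0 FPKM in iECDC and 113, 57.4 and 110.4 after SB431542 (log2 fold change 2.02 ± 0.26, adjusted p = 0.00184), and Col6a2 (1.60) rose too. The chains of basement membrane collagen, Col4a1 at 163, 174 and 219 FPKM in iECDC and 56.6, 78.3 and 52.4 after SB431542 (log2 fold change -1.56 ± 0.19, adjusted p = 0.00161) and Col4a2 (-1.63), fell. Col4a1 and Col4a2 lie head to head on opposite strands and overlap in the annotation. Leaving out SB431542 replicate 2 gave 18 collagen genes higher and 7 lower, and leaving out 1 concordant library 3 to 4 higher and 5 to 7 lower.

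Of 22 tested genes of elastic fibres and matricellular proteins 9 were higher and 4 lower, against 11 and 7 without SB431542 replicate 2. Eln, elastin, had 1, 2 and 3 counts in iECDC and 238, 37 and 222 after SB431542 (adjusted p = 0.00374). Fbln1 (1.14), Mfap2 (0.87), Mfap5 (0.89), Thbs2 (1.69) and Nov (2.77) rose. Fbln2, fibulin 2, was at 726, 742 and 807 FPKM in iECDC and 203, 212 and 193 after SB431542 (log2 fold change -1.89 ± 0.13, adjusted p = 3.15e-04). For Fbln2 SB431542 replicate 2 did not stand apart from the other treated libraries. Wisp1, a CCN family protein, fell (log2 fold change -3.33 ± 0.24, adjusted p = 3.28e-04). Among 15 tested proteoglycan genes 5 were higher and 3 lower, and 3 were higher and 2 to 3 lower without 1 concordant library. Dcn, decorin, which binds collagen and TGF-β, was at 0.390, 0.542 and 0.479 FPKM in iECDC and 17.4, 3.43 and 18.7 after SB431542 (log2 fold change 4.83 ± 0.64, adjusted p = 0.00205). Fmod, fibromodulin, had 2, 1 and 2 counts in iECDC and 43, 28 and 53 after SB431542 (adjusted p = 0.00132). Has2, which makes hyaluronan, was at 62.0, 62.4 and 37.4 FPKM in iECDC and 15.1, 7.96 and 17.6 after SB431542 (log2 fold change -1.98 ± 0.31, adjusted p = 0.00395). Its receptor Cd44 was at 67.7, 73.0 and 78.1 FPKM in iECDC and 16.6, 35.0 and 17.1 after SB431542 (log2 fold change -1.66 ± 0.28, adjusted p = 0.00489).

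Matrix proteases and their inhibitors showed more increases than decreases, with 13 of 23 tested genes higher and 5 lower and a median log2 fold change of 0.91. Beside Mmp3 the metalloproteinases Mmp10 (1.65), Mmp11 (0.91), Mmp19 (0.99) and Adamts5 (1.91) rose, and Mmp8 and Mmp13 had almost no reads before treatment. Mmp8 had 1, 1 and 0 counts in iECDC and 69, 19 and 72 after SB431542 (adjusted p = 0.00330). Mmp13, which did not pass the filter on low counts, had 0, 0 and 0 counts in iECDC and 37, 11 and 37 after SB431542. The metalloproteinase inhibitor Timp1 was at 1445, 1425 and 1478 FPKM in iECDC and 375, 897 and 394 after SB431542 (log2 fold change -1.38 ± 0.32, adjusted p = 0.0152, not called without iECDC replicates 1 or 2 or SB431542 replicates 1 or 3 (highest adjusted p 0.0555)). Timp3 was at 73.7, 77.2 and 80.6 FPKM in iECDC and 33.2, 37.1 and 31.5 after SB431542 (log2 fold change -1.17 ± 0.12, adjusted p = 8.36e-04). The plasminogen system moved in a divided way. Plat, the tissue activator, rose (log2 fold change 1.55 ± 0.17, adjusted p = 0.00109), whereas Plau, the urokinase activator (log2 fold change -1.16 ± 0.21, adjusted p = 0.00626), and its receptor Plaur (log2 fold change -1.84 ± 0.21, adjusted p = 0.00123) fell, together with the inhibitor Serpine2 (log2 fold change -1.27 ± 0.15, adjusted p = 0.00147). Serpinb2, an inhibitor of urokinase, was at 7.21, 6.99 and 6.37 FPKM in iECDC and 12.1, 28.8 and 15.4 after SB431542 (log2 fold change 1.46 ± 0.29, adjusted p = 0.00949), and SB431542 replicate 2 was the highest of the 6 libraries. The counts were 18 higher and 5 lower without SB431542 replicate 2, and 10 to 11 higher and 4 lower without 1 concordant library.

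The AP-1 element TGANTCA, the binding sequence of the AP-1 proteins, is a known feature of metalloproteinase promoters. Searched on both strands, it was in 2217 of 32851 promoters (6.75%), in 4.90% of those of genes called higher, 4.52% of those called lower and 3.59% of those not called. In the list of proteases and inhibitors 5 of 18 promoters held it (Mmp10, Mmp13, Mmp3, Plaur and Serpinb2). The promoter of Mmp3 (chr9:7445572-7445821, plus strand) is printed as that of the metalloproteinase described first above, with the element, 46 bases before the start, in capitals.
Mmp3: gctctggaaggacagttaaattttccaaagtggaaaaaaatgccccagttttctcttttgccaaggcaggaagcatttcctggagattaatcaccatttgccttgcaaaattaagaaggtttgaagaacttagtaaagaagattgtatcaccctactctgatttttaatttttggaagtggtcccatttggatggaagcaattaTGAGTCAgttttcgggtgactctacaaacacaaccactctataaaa

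The labelled tissue and the name of the cells point to epicardial and mesenchymal identity, and the markers of both were examined. Of 22 epicardial and mesothelial genes 12 were tested, 8 were higher and 1 lower (11 and 2 without SB431542 replicate 2), with a median log2 fold change of 2.0, and their summed level was 78.8 to 87.1 FPKM in iECDC and 128 to 209 FPKM after SB431542. C3, a complement component, was at 5.02, 4.73 and 5.39 FPKM in iECDC and 80.1, 31.8 and 82.7 after SB431542 (log2 fold change 3.70 ± 0.35, adjusted p = 7.32e-04). Much of the rise in the summed level came from C3, which is also counted among the complement genes below. Aldh1a1, an enzyme of retinoic acid synthesis, was at 10.4, 11.4 and 10.7 FPKM in iECDC and 33.9, 16.2 and 34.3 after SB431542 (log2 fold change 1.39 ± 0.26, adjusted p = 0.00787). The defining factor Wt1 had 2, 2 and 0 counts in iECDC and 43, 14 and 39 after SB431542 (adjusted p = 0.00615). These counts are near the limit of detection. Upk3b, a mesothelial membrane protein, had 4, 8 and 9 counts in iECDC and 72, 97 and 87 after SB431542 (adjusted p = 9.12e-04). Wt1 and Upk3b passed the filter on low counts only through the treated libraries. Members that enter in this way may raise the share called higher and the median of the list. Aldh1a2, the retinoic acid enzyme of the embryonic epicardium, fell at a low level, with 2.76, 2.499 and 3.19 FPKM in iECDC and 0.227, 0.546 and 0.513 after SB431542 (log2 fold change -2.68 ± 0.31, adjusted p = 0.00138). Tbx18, an epicardial transcription factor, was well expressed at 25.03, 23.2 and 18.8 FPKM in iECDC and 39.7, 22.9 and 41.8 after SB431542 and was not called (log2 fold change 0.65 ± 0.23, adjusted p = 0.0626). Tbx18 had an adjusted p of 4.29e-04 without SB431542 replicate 2 and of 4.20e-11 to 0.189 over the alternatives. In bulk RNA a change in the number of cells of a type and a change of RNA per cell cannot be told apart.

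Epithelial markers stayed near 0. Of 15 markers 13 were not tested, 11 had at most 3 counts in each of the 6 libraries, and the summed level was 3.32 to 3.61 FPKM in iECDC and 3.45 to 4.97 FPKM after SB431542. Epcam had 1, 0 and 0 counts in iECDC and 0, 0 and 0 after SB431542. Cdh1, E-cadherin, had 2, 0 and 0 counts in iECDC and 1, 2 and 1 after SB431542. Among 12 tested genes of epithelial-mesenchymal transition 2 were higher (16.7%, near the 16.0% of all tested genes) and 4 lower (33.3%, against 14.0%). The counts were 2 and 2 without iECDC replicate 3 and 1 and 1 to 3 without 1 concordant library. Snai1, the repressor of E-cadherin that TGF-β induces, was at 66.8, 66.5 and 89.6 FPKM in iECDC and 33.0, 59.2 and 38.8 after SB431542 (log2 fold change -0.75 ± 0.22, adjusted p = 0.0349, not called without any library but SB431542 replicate 2 (highest adjusted p 0.118)). Foxc2 fell (log2 fold change -1.70 ± 0.16, adjusted p = 7.03e-04) and Prrx1 rose (log2 fold change 0.87 ± 0.15, adjusted p = 0.00615). Vim, vimentin, was at 1040.0, 1081 and 1299 FPKM in iECDC and 752, 774 and 648 after SB431542 (log2 fold change -0.64 ± 0.15, adjusted p = 0.0169, not called without iECDC replicate 2 or SB431542 replicates 1 or 3 (highest adjusted p 0.0861)). Of 15 tested fibroblast and mesenchymal markers 8 were higher and 2 lower, or 6 to 7 and 1 without 1 concordant library. Pdgfra was at 10.3, 10.8 and 10.7 FPKM in iECDC and 21.7, 17.5 and 22.2 after SB431542 (log2 fold change 0.96 ± 0.12, adjusted p = 0.00180). Pdgfrb was at 21.2, 22.2 and 23.4 FPKM in iECDC and 65.8, 31.9 and 57.8 after SB431542 (log2 fold change 1.23 ± 0.24, adjusted p = 0.00902). Ly6a, the antigen Sca-1, was at 7.11, 6.51 and 5.08 FPKM in iECDC and 35.3, 16.2 and 37.0 after SB431542 (log2 fold change 2.25 ± 0.32, adjusted p = 0.00262). Itgb1 fell (log2 fold change -0.75 ± 0.12, adjusted p = 0.00385), and the summed level of the list was 717 to 744 FPKM in iECDC and 592 to 649 FPKM after SB431542. Markers of other cell types were low in every library. The 16 cardiomyocyte markers, 12 of them at no more than 3 counts, summed to 3.70 to 5.34 FPKM in iECDC and 1.73 to 2.40 FPKM after SB431542. Of the 3 that were tested 2 were lower (66.7%, against 14.0% of all tested genes), or 1 without 1 concordant library, and 0 higher. The 12 endothelial markers summed to 0.839 to 2.29 FPKM and the 12 haematopoietic markers to 11.2 to 17.7 FPKM. The part of these cell types in the results was not tested. Of 13 tested cardiac transcription factors 2 were higher (4 without SB431542 replicate 2 and 0 without 1 concordant library), and 1 was lower, Tbx20 (log2 fold change -0.68 ± 0.13, adjusted p = 0.00899). The shares called in this list, 15.4% higher and 7.69% lower, did not exceed the 16.0% and 14.0% of all tested genes.

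Secreted growth factors moved in both directions. Of 23 tested ligands of the FGF, HGF, IGF, PDGF and VEGF families 6 were higher and 7 lower. Vegfd, a lymphangiogenic factor, was at 13.8, 14.2 and 14.7 FPKM in iECDC and 178, 41.3 and 178 after SB431542 (log2 fold change 3.23 ± 0.50, adjusted p = 0.00354). Hgf, hepatocyte growth factor, was at 1.70, 1.346 and 0.552 FPKM in iECDC and 6.21, 5.58 and 7.56 after SB431542 (log2 fold change 2.42 ± 0.34, adjusted p = 0.00264). Fgf2 was at 8.66, 9.09 and 7.004 FPKM in iECDC and 0.336, 1.44 and 0.326 after SB431542 (log2 fold change -3.52 ± 0.51, adjusted p = 0.00287). Igf1 was at 2.83, 2.82 and 3.49 FPKM in iECDC and 0.489, 0.2496 and 0.525 after SB431542 (log2 fold change -2.85 ± 0.26, adjusted p = 6.85e-04). The IGF system moved beside its ligand. Igfbp7 was at 627, 561 and 596 FPKM in iECDC and 98.2, 143 and 104 after SB431542 (log2 fold change -2.36 ± 0.17, adjusted p = 3.15e-04). Igfbp4, the main substrate of the protease encoded by Pappa, was at 274, 254 and 235 FPKM in iECDC and 502, 421 and 476 after SB431542 (log2 fold change 0.89 ± 0.14, adjusted p = 0.00359). Igfbp2 had 1, 0 and 7 counts in iECDC and 146, 186 and 176 after SB431542 (adjusted p = 9.12e-04). Stc1 and Stc2, whose products inhibit that protease, both rose, Stc2 with 5.37, 5.18 and 3.13 FPKM in iECDC and 12.2, 9.80 and 12.02 after SB431542 (log2 fold change 1.32 ± 0.21, adjusted p = 0.00383), while Pappa fell as given above. Of the 8 tested genes of this list 5 were higher and 2 lower. Of the EGF family, Hbegf was at 38.8, 36.4 and 31.3 FPKM in iECDC and 3.08, 11.98 and 3.24 after SB431542 (log2 fold change -2.52 ± 0.48, adjusted p = 0.00785). In that family 4 of 9 tested members were higher and 2 lower, or 1 to 2 higher and 1 lower without 1 concordant library.

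Genes that report ERK signalling through negative feedback were lower in 5 of 14 tested cases and higher in 1, while without SB431542 replicate 2 the counts were 11 and 3 and without 1 concordant library 2 and 0. Dusp5, an ERK phosphatase, was at 37.8, 34.2 and 33.2 FPKM in iECDC and 8.65, 18.0 and 7.99 after SB431542 (log2 fold change -1.59 ± 0.28, adjusted p = 0.00641), and Spry4 fell (log2 fold change -0.80 ± 0.15, adjusted p = 0.00707). Dusp4 was at 82.2, 90.3 and 77.4 FPKM in iECDC and 35.5, 88.3 and 32.7 after SB431542 (log2 fold change -0.67 ± 0.34, adjusted p = 0.174). Dusp4 had an adjusted p of 1.87e-05 without SB431542 replicate 2 and of 7.56e-17 to 0.428 over the alternatives. Etv4 was at 18.7, 19.0 and 22.6 FPKM in iECDC and 6.83, 17.6 and 6.95 after SB431542 (log2 fold change -0.93 ± 0.34, adjusted p = 0.0704). Etv4 had an adjusted p of 1.06e-05 without SB431542 replicate 2 and of 4.00e-16 to 0.204 over the alternatives. In Dusp4 and Etv4 SB431542 replicate 2 was at or close to the iECDC level while replicates 1 and 3 were well below it.

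Of 13 tested chemokines and interleukins 6 were lower and 2 higher, with a median log2 fold change of -0.65. That lean was lost without SB431542 replicate 2, when 16 were tested, 7 were lower and 8 higher and the median was 0.03. Csf1, the macrophage growth factor, was at 636, 667 and 731 FPKM in iECDC and 289.8, 380.1 and 286 after SB431542 (log2 fold change -1.08 ± 0.16, adjusted p = 0.00296). Cx3cl1 was at 47.9, 45.4 and 59.2 FPKM in iECDC and 13.8, 22.0 and 13.1 after SB431542 (log2 fold change -1.63 ± 0.21, adjusted p = 0.00188). Lif was at 6.21, 6.15 and 3.01 FPKM in iECDC and 0.760, 1.98 and 0.789 after SB431542 (log2 fold change -2.10 ± 0.42, adjusted p = 0.00939). Cxcl12, the ligand of Cxcr4, rose (log2 fold change 1.19 ± 0.29, adjusted p = 0.0181, not called without iECDC replicates 1 or 2 or SB431542 replicates 1 or 3 (highest adjusted p 0.0813)), as did Cxcl5 (log2 fold change 2.27 ± 0.47, adjusted p = 0.0108). Of the prostaglandin genes, Pla2g4a, which releases arachidonic acid, fell together with Ptgs2 (log2 fold change -1.60 ± 0.22, adjusted p = 0.00238), and Slco2a1, the prostaglandin transporter, rose (log2 fold change 1.25 ± 0.15, adjusted p = 0.00166). Of the 8 tested prostaglandin genes 1 was higher and 2 lower, and 2 were called in each direction without SB431542 replicate 2. Complement genes were higher in 7 of 9 tested cases and lower in 1, with a median log2 fold change of 2.16. Beside C3, C4b was at 1.17, 1.45 and 1.62 FPKM in iECDC and 14.5, 5.39 and 13.5 after SB431542 (log2 fold change 2.99 ± 0.36, adjusted p = 0.00159). C1s1 was at 1.92, 1.57 and 1.75 FPKM in iECDC and 20.2, 5.06 and 20.6 after SB431542 (log2 fold change 3.14 ± 0.49, adjusted p = 0.00389). Serping1, the C1 inhibitor, was at 1.17, 1.20 and 0.756 FPKM in iECDC and 5.44, 2.66 and 5.86 after SB431542 (log2 fold change 2.16 ± 0.34, adjusted p = 0.00395). Of 22 tested genes of the interferon response 5 were higher (22.7%) and 4 lower (18.2%), near the 16.0% and 14.0% of all tested genes. The counts were 9 and 6 without SB431542 replicate 2, and 2 and 3 to 4 without 1 concordant library. Bst2 (-1.31) and Oas1a (-2.87) fell, and Irf1 (1.05) and Gbp2 (1.56) rose.

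Of 13 tested Wnt genes 5 were higher and 2 lower, against 6 and 4 without SB431542 replicate 2. The antagonist Sfrp1 was at 14.0, 14.3 and 12.9 FPKM in iECDC and 149.6, 46.3 and 152 after SB431542 (log2 fold change 3.09 ± 0.41, adjusted p = 0.00209). Dkk3 was at 5.77, 4.42 and 3.78 FPKM in iECDC and 26.8, 10.3 and 25.1 after SB431542 (log2 fold change 2.16 ± 0.35, adjusted p = 0.00436). Wnt4 had 10, 7 and 4 counts in iECDC and 72, 70 and 51 after SB431542 (log2 fold change 3.08 ± 0.33, adjusted p = 0.00102), and Lef1, a transcription factor of the pathway, fell from a low level (log2 fold change -2.99 ± 0.56, adjusted p = 0.00755). Of 6 tested Notch genes 2 were higher, 1 without 1 concordant library, and 3 lower. Hes1, the repressor that Notch and other signals induce, was at 20.8, 19.6 and 18.1 FPKM in iECDC and 0.896, 4.64 and 1.20 after SB431542 (log2 fold change -3.08 ± 0.51, adjusted p = 0.00484). Jag1 fell (log2 fold change -1.16 ± 0.29, adjusted p = 0.0194, not called without iECDC replicates 1, 2 or 3 (highest adjusted p 0.0604)) and Notch3 rose (log2 fold change 1.34 ± 0.20, adjusted p = 0.00334).

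Genes of retinoic acid handling were higher in 5 of 10 tested cases (3 to 4 without 1 concordant library) and lower in 2. Dhrs3, which reduces retinal, was at 5.86, 5.18 and 3.73 FPKM in iECDC and 30.00, 10.3 and 29.8 after SB431542 (log2 fold change 2.25 ± 0.39, adjusted p = 0.00569). Crabp1 was at 1.36, 1.97 and 2.84 FPKM in iECDC and 0.0711, 0.415 and 0.207 after SB431542 (log2 fold change -3.03 ± 0.53, adjusted p = 0.00582). Among 10 tested adipogenic, osteogenic and chondrogenic genes 5 were higher and 1 lower, or 5 and 2 without SB431542 replicate 2. Lpl, lipoprotein lipase, was at 0.298, 0.441 and 0.261 FPKM in iECDC and 4.04, 0.871 and 3.94 after SB431542 (log2 fold change 3.15 ± 0.56, adjusted p = 0.00602). Alpl, alkaline phosphatase, was at 0.221, 0.181 and 0.0807 FPKM in iECDC and 1.61, 2.75 and 1.73 after SB431542 (log2 fold change 3.62 ± 0.37, adjusted p = 9.67e-04). Sox9 was at 4.31, 4.25 and 3.78 FPKM in iECDC and 11.3, 8.36 and 8.66 after SB431542 (log2 fold change 1.21 ± 0.15, adjusted p = 0.00168).

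Among the genes of DNA replication and mitosis more were lower than higher with all 6 libraries, and few were called without 1 concordant library. Of 35 DNA replication genes 9 were lower (25.7%, against 14.0% of all tested genes) and 0 higher, with a median log2 fold change of -0.31. The count lower was 24 without SB431542 replicate 2, when 24.8% of all tested genes were lower. It was 3 without iECDC replicate 3, when 11.9% of all tested genes were lower. It was 1 to 2 without 1 concordant library, when 707 to 765 of 13774 to 13983 tested genes were lower. Fen1, the flap endonuclease of lagging strand synthesis, was at 7.73, 7.64 and 7.15 FPKM in iECDC and 3.53, 5.08 and 3.13 after SB431542 (log2 fold change -0.92 ± 0.19, adjusted p = 0.0105). Rrm2, a subunit of ribonucleotide reductase, was at 111, 114 and 119 FPKM in iECDC and 31.9, 78.7 and 33.5 after SB431542 (log2 fold change -1.25 ± 0.32, adjusted p = 0.0228, not called without any library but SB431542 replicate 2 (highest adjusted p 0.0749)). Pcna, the sliding clamp, was at 137, 134 and 133 FPKM in iECDC and 83.9, 138 and 90.2 after SB431542 (log2 fold change -0.36 ± 0.18, adjusted p = 0.167). Pcna had an adjusted p of 4.95e-04 without SB431542 replicate 2 and of 6.50e-10 to 0.461 over the alternatives. The values of SB431542 replicate 2 for Pcna were those of untreated cells. Of 30 mitosis genes 6 were lower (20%, against 14.0% of all tested genes) and 2 higher (6.67%, against 16.0%). Without SB431542 replicate 2, 14 were lower, and without iECDC replicate 3 there was 1 in each direction. Leaving out 1 concordant library left 0 to 1 mitosis genes lower and 0 higher. Of 17 tested cell cycle inhibitors and p53 targets 5 were higher and 4 lower, against 5 and 9 without SB431542 replicate 2 and 2 to 3 and 3 to 4 without 1 concordant library. Cdkn1a, the inhibitor p21 that both p53 and TGF-β induce, was at 143, 135 and 144 FPKM in iECDC and 55.0, 83.8 and 50.4 after SB431542 (log2 fold change -1.15 ± 0.19, adjusted p = 0.00476). Mdm2, the ubiquitin ligase of p53, was at 49.9, 51.0 and 43.8 FPKM in iECDC and 15.5, 20.9 and 15.9 after SB431542 (log2 fold change -1.45 ± 0.14, adjusted p = 8.36e-04). Cdkn2c was at 17.9, 16.9 and 22.2 FPKM in iECDC and 31.5, 29.7 and 31.5 after SB431542 (log2 fold change 0.71 ± 0.12, adjusted p = 0.00531), and Gadd45a rose (log2 fold change 1.90 ± 0.36, adjusted p = 0.00772).

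Many genes of the cholesterol pathway rose. Of 27 tested genes of cholesterol and fatty acid synthesis 18 were higher and none lower, 24 were higher without SB431542 replicate 2, and the median log2 fold change was 1.15. Insig1, the sterol-regulated retention protein of the pathway, was at 9.42, 10.01 and 14.2 FPKM in iECDC and 61.3, 17.9 and 59.0 after SB431542 (log2 fold change 2.06 ± 0.42, adjusted p = 0.0103, not called without iECDC replicate 1 (highest adjusted p 0.0537)). Sqle, squalene epoxidase, was at 7.81, 7.17 and 12.1 FPKM in iECDC and 33.3, 16.1 and 31.6 after SB431542 (log2 fold change 1.59 ± 0.30, adjusted p = 0.00777). Mvd was at 5.25, 5.40 and 6.16 FPKM in iECDC and 17.8, 9.23 and 16.1 after SB431542 (log2 fold change 1.37 ± 0.24, adjusted p = 0.00594). Fdft1, squalene synthase, was at 8.22, 7.22 and 11.5 FPKM in iECDC and 28.2, 15.2 and 25.7 after SB431542 (log2 fold change 1.37 ± 0.26, adjusted p = 0.00741). The desaturase Scd1 was at 14.7, 16.3 and 15.5 FPKM in iECDC and 47.3, 25.9 and 46.0 after SB431542 (log2 fold change 1.37 ± 0.22, adjusted p = 0.00406). Hmgcs1, HMG-CoA synthase (ENSMUSG00000093930, chromosome 13, 119690379 to 119708260, plus strand, GRCm38), was at 7.76, 7.59 and 8.05 FPKM in iECDC and 26.7, 8.76 and 26.2 after SB431542 (log2 fold change 1.41 ± 0.36, adjusted p = 0.0230, not called without any library but SB431542 replicate 2 (highest adjusted p 0.0836)). For Hmgcs1 SB431542 replicate 2 was just above the iECDC libraries, and over the 24 genes called without it the median position of replicate 2 was 0.29. Srebf2, the transcription factor that drives the pathway, was at 18.1, 18.3 and 28.5 FPKM in iECDC and 45.8, 32.1 and 41.9 after SB431542 (log2 fold change 0.90 ± 0.21, adjusted p = 0.0162, not called without iECDC replicates 1 or 2 or SB431542 replicates 1 or 3 (highest adjusted p 0.0764)). Fasn, fatty acid synthase, was at 38.0, 40.2 and 51.9 FPKM in iECDC and 40.0, 36.1 and 36.1 after SB431542 and was not called (log2 fold change -0.20 ± 0.14, adjusted p = 0.318). Fasn had an adjusted p of 0.313 without SB431542 replicate 2 and of 0.181 to 0.699 over the alternatives. Without 1 concordant library 6 to 9 genes of the list were higher and 0 lower, and without iECDC replicate 3 the counts were 18 and 1.

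**Figure D3:**
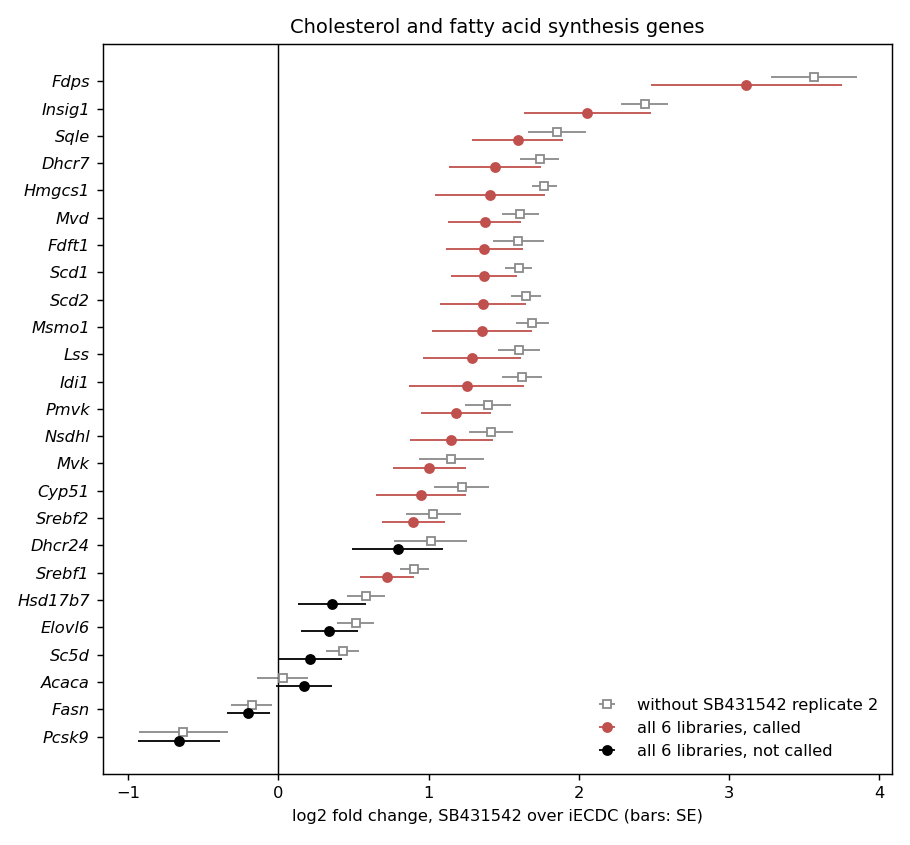
Log2 fold change of SB431542 over iECDC (x axis) with its SE for 25 of the cholesterol and fatty acid synthesis genes, with all 6 libraries as filled circles (red where called, black where not) and without SB431542 replicate 2 as open squares. The 18 called genes lie at 0.72 or above, Fdps, with 0.0867 to 1.25 FPKM per library, lies highest, and the open squares lie to the right of the circles for most genes.

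The sterol regulatory element in the form TCACNCCAC, the binding sequence of the Srebf proteins, was in 346 of 32851 promoters (1.05%). It was in 15 of 1224 promoters of genes called higher (1.23%), in 4 of 1173 of genes called lower (0.341%) and in 49 of 5349 of those not called (0.916%). Of 18 pathway genes with a promoter in the table, only 1 held it in these letters, Hmgcs1 (chr13:119690101-119690350, plus strand), where it lies 137 bases before the start and is in capitals below.
Hmgcs1: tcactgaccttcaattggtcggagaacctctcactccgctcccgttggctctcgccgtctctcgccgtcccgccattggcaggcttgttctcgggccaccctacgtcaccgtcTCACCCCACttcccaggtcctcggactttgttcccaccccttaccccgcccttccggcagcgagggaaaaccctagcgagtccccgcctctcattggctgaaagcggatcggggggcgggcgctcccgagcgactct

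In several genes of stress responses SB431542 replicate 2 lay far from the other treated libraries. Nqo1, a quinone reductase under the control of NRF2, was at 245, 252 and 289 FPKM in iECDC and 31.5, 250.3 and 31.4 after SB431542 (log2 fold change -1.32 ± 0.73, adjusted p = 0.200). Nqo1 had an adjusted p of 2.29e-07 without SB431542 replicate 2 and of 2.19e-26 to 0.410 over the alternatives. Txnrd1, thioredoxin reductase, was at 260.3, 276 and 269 FPKM in iECDC and 46.2, 198 and 50.9 after SB431542 (log2 fold change -1.44 ± 0.51, adjusted p = 0.0643). Txnrd1 had an adjusted p of 4.77e-07 without SB431542 replicate 2 and of 1.46e-25 to 0.168 over the alternatives. Slc7a11, the cystine transporter, was at 2.21, 2.11 and 1.27 FPKM in iECDC and 0.254, 2.38 and 0.191 after SB431542 (log2 fold change -0.97 ± 0.81, adjusted p = 0.388). Slc7a11 had an adjusted p of 3.68e-05 without SB431542 replicate 2 and of 2.82e-19 to 0.682 over the alternatives. For Nqo1 and Slc7a11 replicate 2 was inside the iECDC range or next to it, several fold above replicates 1 and 3. Hmox1, heme oxygenase, was at 811, 797 and 320.4 FPKM in iECDC and 90.7, 243 and 92.7 after SB431542 (log2 fold change -2.17 ± 0.48, adjusted p = 0.0130, not called without iECDC replicate 1 (highest adjusted p 0.0539)), and iECDC replicate 3 was the lowest of the untreated libraries. Of 14 tested NRF2 genes 3 were higher and 3 lower, 11 were lower without SB431542 replicate 2 and 1 was called in each direction without 1 concordant library, and over the 14 called without replicate 2 its median position was 0.17. The ATF4 genes of amino acid stress had a median position of 0.08 over 12 genes, with 3 of 19 higher and 2 lower, or 9 lower without replicate 2 and 1 lower without 1 concordant library, among them Ddit4 (log2 fold change -1.74 ± 0.17, adjusted p = 8.17e-04). With all 6 libraries the shares called, 15.8% higher and 10.5% lower, were near those of all tested genes (16.0% and 14.0%). Of 23 glycolysis and hypoxia genes 7 were higher and 2 lower, with Ndrg1 (1.43), Bnip3 (1.09) and Pdk1 (1.06) higher and Hk2 (-1.08) lower. The counts were 9 and 4 without SB431542 replicate 2, and 4 to 5 and 1 without 1 concordant library. Of 17 ER folding genes 3 were lower (17.6%, near the 14.0% of all tested genes, and 1 to 2 without 1 concordant library) and 0 higher.

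**Figure D4:**
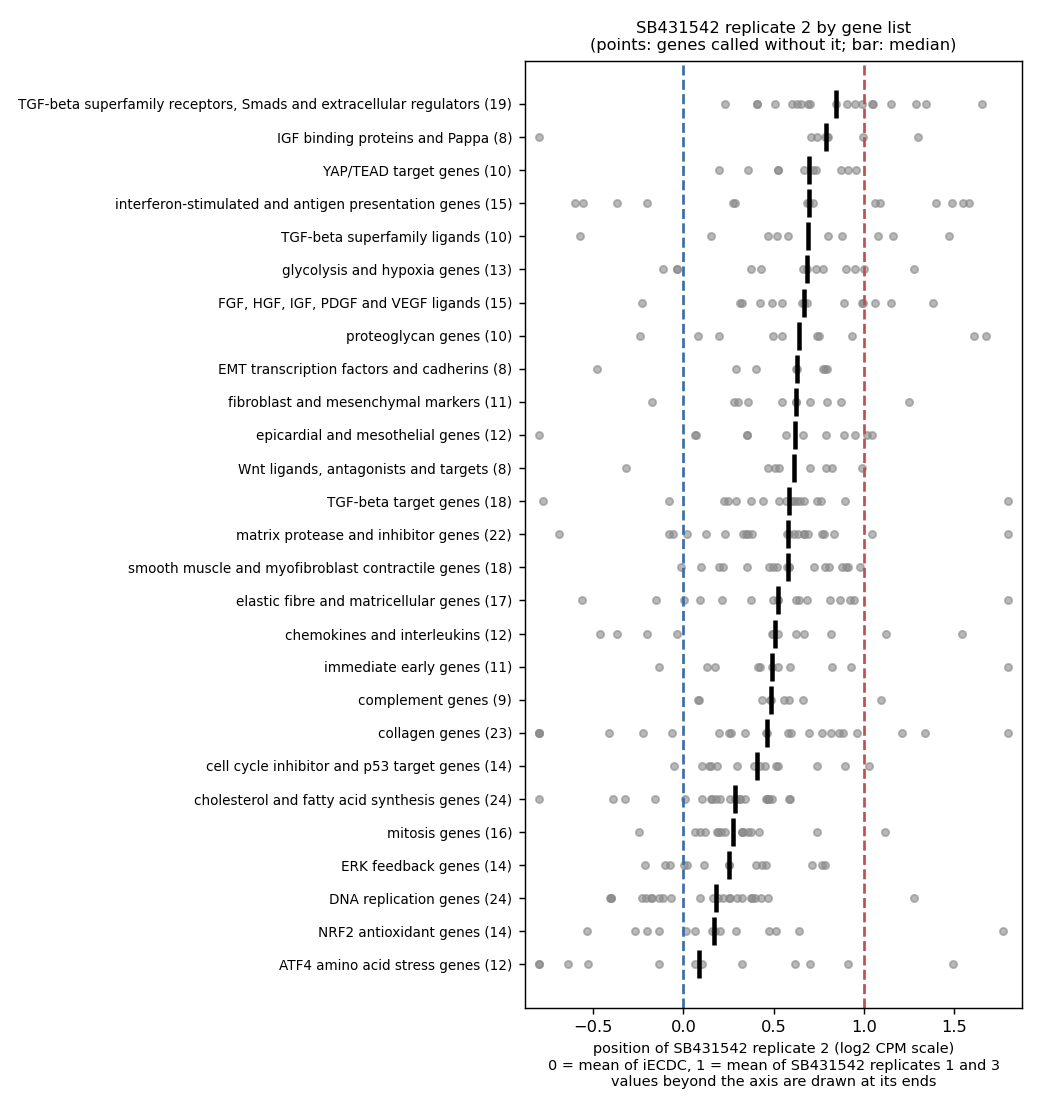
Position of SB431542 replicate 2 (x axis, log2 CPM scale, 0 = mean of iECDC, 1 = mean of SB431542 replicates 1 and 3) for the genes called without it in each list that holds at least 8 of them (points, their number in parentheses) with the median as a black bar. The medians of these lists run from 0.08 for the ATF4 genes and 0.17 for the NRF2 genes near the untreated line to 0.84 for the receptors and Smads near the treated line, and the points of each list are widely spread.

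**Figure D5:**
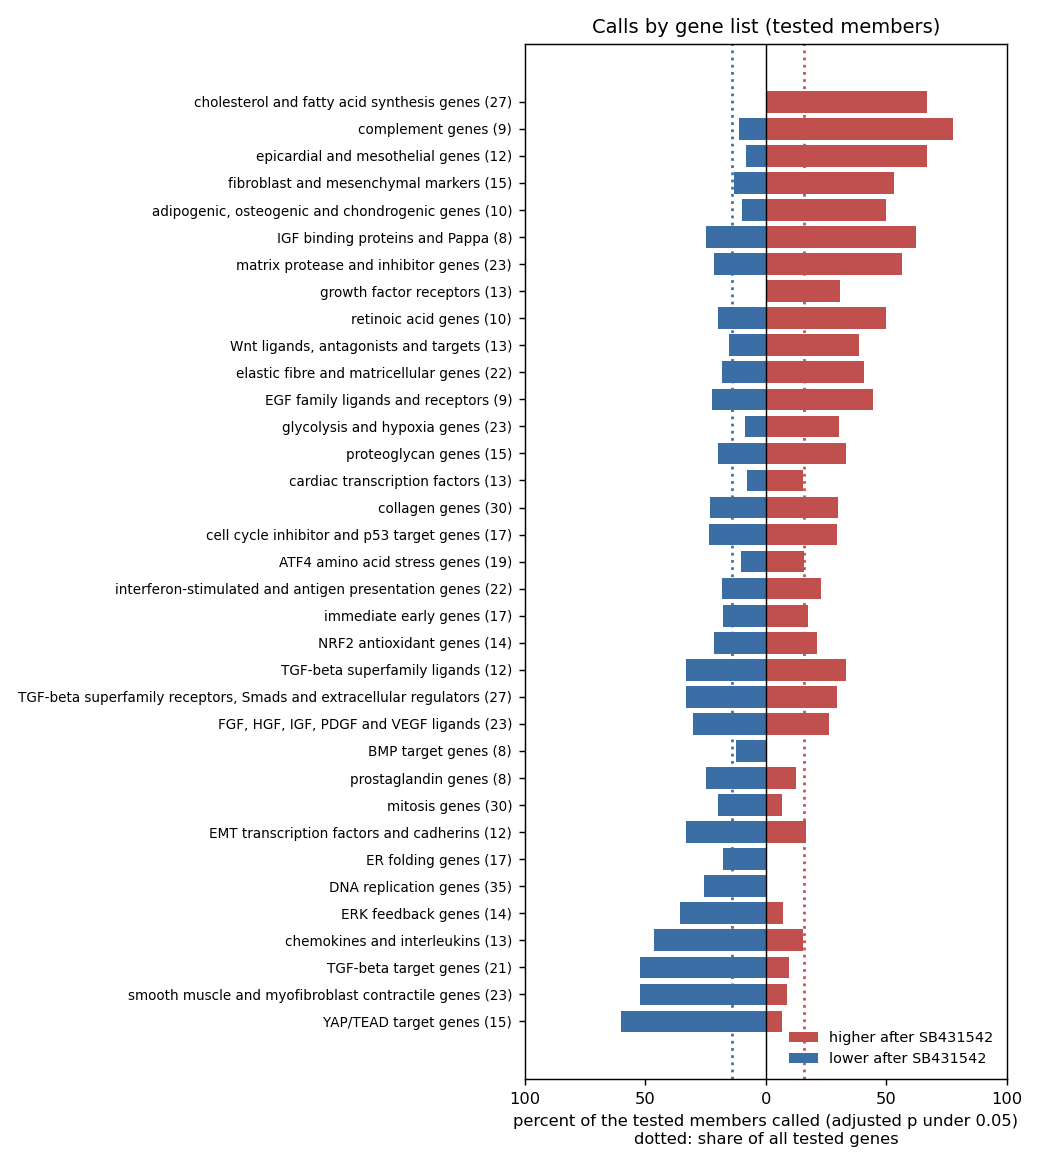
Percent of the tested members of each list with at least 8 of them (y axis, tested members in parentheses) that were called higher (red, to the right) or lower (blue, to the left) after SB431542, with dotted lines at the 16.0% and 14.0% of all tested genes. Complement, cholesterol synthesis and epicardial genes reach farthest to the right, and YAP/TEAD targets, contractile genes and TGF-β targets farthest to the left.

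Of 915 tested genes that the deposited table assigns to a transcription factor family, 173 were higher and 61 lower, and 282 were higher and 125 lower without SB431542 replicate 2. Over all tested genes 16.0% were higher and 14.0% lower with all 6 libraries. The share of these genes that was higher was thus near that of all genes, and the share lower was smaller. The following factors were chosen after their values were seen. Maf was at 0.120, 0.133 and 0.0790 FPKM in iECDC and 8.61, 1.58 and 7.21 after SB431542 (log2 fold change 5.70 ± 0.69, adjusted p = 0.00158). Foxa2 was at 1.46, 1.85 and 1.29 FPKM in iECDC and 12.6, 8.21 and 9.88 after SB431542 (log2 fold change 2.74 ± 0.22, adjusted p = 3.95e-04). Ahr, the aryl hydrocarbon receptor, was at 3.16, 3.71 and 3.37 FPKM in iECDC and 16.1, 12.3 and 18.1 after SB431542 (log2 fold change 2.19 ± 0.16, adjusted p = 3.57e-04). Hmga2, an architectural factor that TGF-β induces, was at 67.8, 72.4 and 58.3 FPKM in iECDC and 6.26, 23.4 and 6.32 after SB431542 (log2 fold change -2.45 ± 0.49, adjusted p = 0.00949). Among immediate early genes 3 of 17 were higher and 3 lower (17.6% each, near the shares of all tested genes), against 4 and 7 without SB431542 replicate 2, with Fosb (-2.01) and Nr4a1 (-1.81) lower and Atf3 (2.68) higher. Fosl1, a member of the AP-1 family, was at 102, 102 and 98.1 FPKM in iECDC and 20.6, 76.5 and 21.9 after SB431542 (log2 fold change -1.34 ± 0.46, adjusted p = 0.0578). Fosl1 had an adjusted p of 4.48e-07 without SB431542 replicate 2 and of 3.14e-22 to 0.156 over the alternatives.

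Some genes had almost no counts in 1 group and were detected in every library of the other, in many cases at low counts. With at most 3 counts in every iECDC library and at least 10 in every SB431542 library there were 43 genes, 40 of them protein coding, and with the reverse 17 genes, 15 of them protein coding. Chl1, a neural cell adhesion molecule, had 0, 0 and 0 counts in iECDC and 401, 106 and 516 after SB431542. Lrg1, a secreted leucine-rich glycoprotein, had 3, 2 and 0 counts in iECDC and 278, 71 and 272 after SB431542. Scn7a, a sodium channel, had 2, 3 and 0 counts in iECDC and 221, 17 and 241 after SB431542. In the other direction Npy6r had 76, 63 and 23 counts in iECDC and 0, 2 and 0 after SB431542. Cdh6, a cadherin, had 59, 52 and 25 counts in iECDC and 0, 2 and 1 after SB431542. Myct1 had 24, 33 and 14 counts in iECDC and 0, 0 and 0 after SB431542. These 6 examples were also chosen after their values were seen. SB431542 replicate 2 had fewer counts than replicates 1 and 3 in each of the rising examples.

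The strand of the counting is not given in the sources used here, so reads from a gene and from a gene overlapping it on the other strand cannot be told apart. Of the 198 genes named in the text 68 overlap an annotated gene on the other strand, and 20 of them a protein-coding one, among them Bmp4, Bmp6, Chrd, Cp, Esm1, Fdft1, Fen1, Fgf2, Fstl3, Igfbp7, Irf1, Mmp11, Mmp19, Mvd, Selenop, Tagln, Timp1 and Timp3. Ly6a, C4b, Oas1a, Ccl17 and Serpina3g belong to families with close copies, whose reads may be split between members.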

How the data were processed

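RNA of 9 mouse libraries was sequenced, and the 3 SB431542 and 3 iECDC libraries were compared here. The authors deposited 1 table with raw counts and FPKM values per gene and library. The authors' own fold changes and their p-values, also in the table, were not used, and 0 other columns held values of single samples. The submitters' processing notes name mm9, TopHat2 2.0.9 and Bowtie2 2.0.6, whereas the coordinates in the table equal those of GENCODE M21 (GRCm38) for 53499 of 54532 genes, and the coordinates of the table are the ones given. The counting program and its strand setting are not given in the sources used here. The labels and the study's methods name different library kits. Spreadsheet dates were turned back into 27 gene symbols.

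Columns were matched to samples by their titles. Counts were tested in edgeR 4.0.16 (R 4.3.3, limma 3.58.1) with TMM normalization, the default filter on low counts (10 counts per library, 15 in total), its quasi-likelihood test without covariates and Benjamini-Hochberg adjustment over all tested genes, with a threshold of 0.05. A gene could pass the filter through 1 group alone, so list members near 0 in the other group were tested because of the group where they were high. FPKM values, as deposited, are printed as levels. Log2 CPM for positions between the groups used a prior count of 2. Promoters came from RefSeq. On simulated counts for this comparison (13150 genes, a log2 change of 1) 156 of 194 changed genes were recovered with 4 false calls. The simulation gave all genes the same coefficient of variation (0.171) and placed no library between the groups. Its false calls therefore do not measure those in the real libraries.

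The 41 gene lists and the members were chosen with earlier results of these data known. Named genes are list members and, among called protein-coding genes whose groups did not overlap and whose higher group averaged at least 10 FPKM, the 15 top increases and 15 top decreases. Some listed genes are not reported here. Genes outside this rule are said to be chosen after their values were seen. DESeq2 1.42.0, limma on log2 FPKM, other normalizations and filters, a replicate block and the omission of each library were tried as alternatives. So was the omission of SB431542 replicate 2 and iECDC replicate 3 together, chosen after seeing the data. Figures were drawn with matplotlib 3.10.9 in Python 3.11.15.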

Additional observations from a re-analysis of the deposited data

How the results depend on the processing

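Against 4061 called genes (2164 higher, 1897 lower), the other normalizations, filters and tests gave 3702 to 5850 calls. With all 9 libraries sharing 1 estimate of the spread 5850 genes were called, 2971 higher and 2879 lower. Requiring a log2 fold change of at least 1 as well left 1434, 941 higher and 493 lower. Leaving out 1 library gave 1707 to 7001 called genes, 984 to 3537 higher and 707 to 3464 lower, and the upper ends come from leaving out SB431542 replicate 2. Leaving out SB431542 replicate 2 and iECDC replicate 3 together, an alternative chosen after seeing the data, gave 8951 called genes, 4526 higher and 4425 lower. The biological coefficient of variation was 0.171 with all 6 libraries, 0.108 without SB431542 replicate 2 and 0.0541 without both. DESeq2 called 4480 genes. Upper-quartile scaling called 2319 higher and 1701 lower. The cause of these differences was not tested.

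With the replicate number as a replicate block 3038 genes were called, 1638 higher and 1400 lower, and 2932 of the 4061 genes were among them. Deviations from the group means of same-numbered libraries had correlations of 0.0231, -0.172 and -0.244, against -0.113 to 0.206 for differently numbered ones. The correlations thus showed no pairing by number. With 3 libraries per group they cannot exclude it.

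The position of SB431542 replicate 2 was 0.51 and that of iECDC replicate 3 was 0.08 over genes with a log2 fold change of at least 1, against 0.46 and 0.20. Of the named genes, Col1a1 changed direction in 1 alternative, with log2 fold changes from -0.029 without SB431542 replicate 1 to 0.57 without both doubted libraries. Of all values of 193 tested named genes under the alternatives, 3105 kept their direction and side of the threshold, 85 were no longer called and 62 became called.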

Other observations

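The place of iECDC replicate 3 was measured in the same way as that of SB431542 replicate 2. Over the 3559 genes called without it, its median position was 0.20, where 0 is the mean of iECDC replicates 1 and 2 and 1 the mean of the treated libraries. What set either library apart was not tested.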
